A study of Homo sapiens with 9 samples.

Results

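Trimethylated lysine 4 of histone H3 (H3K4me3), a mark of active promoters, was examined at 9 genes of the red cell membrane skeleton: SPTB, ANK1, SLC4A1, EPB42, EPB41, ADD1, ADD2, DMTN and TMOD1. The genes were taken by name and not by a cut on their values, though with earlier results of these data known. They came out of 20162 protein-coding genes of the GENCODE annotation on hg19. A gene was called marked in a library when a peak lay within 1 kb of any annotated start, and its promoter signal was the largest signal among those peaks. The libraries came from HEL, an established human erythroleukemia line, and fell into 4 groups. NTC (non-targeting control guide) had 3 libraries, and METTL3-KO, METTL14-KO and WTAP-KO, CRISPR knockouts of subunits of the methyltransferase that writes m6A on RNA, had 2 libraries each. All cells were grown in serum-containing RPMI medium, and the labels name no treatment beside the guides. The labels do not say whether the libraries of a group came from separate cultures or whether a knockout was a clone or a pool, so p-values measure only the spread between these libraries. A list of peaks does not measure how far the targeted gene was disrupted.

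The membrane skeleton is a mesh of spectrin under the lipid bilayer that gives the red cell its shape and lets it deform in flow. Ankyrin ties the mesh to the anion exchanger band 3 with the help of protein 4.2, and protein 4.1, adducin, dematin and tropomodulin join spectrin to short actin filaments. Loss of function of ankyrin, spectrin, band 3 or protein 4.2 causes hereditary spherocytosis, and loss of spectrin or protein 4.1 function causes hereditary elliptocytosis.

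Each library was a list of peaks with a calibrated signal, and the lists held 99358 peaks in all. Sequencing depth is unknown, so precision rests on how many libraries there were. NTC libraries marked 9441 to 9655 coding genes, METTL3-KO libraries 6750 and 6978, METTL14-KO libraries 4264 and 2662, and WTAP-KO libraries 2298 and 2606. Values lay on steps of 1.14 to 1.32 signal units in NTC and of 0.320 to 1.07 in KO libraries, a step being the apparent worth of 1 fragment. The widest listed peak was 2000 bp, so a start without a listed peak need not lack the mark. Of the 8 erythroid markers examined, 4 (GATA1, KLF1, EPOR and TAL1) were marked in all NTC libraries, as were 2 of 4 megakaryocytic markers and 3 of 6 markers of other cell types (PAX5 and COL1A1 among them), while CD3E, ALB and EPCAM had no peak. GATA1 (2638, 2788 and 2982 in NTC), KLF1, EPOR, PAX5 and COL1A1 had no KO peak, and their part in the results was not tested. In bulk cells, fewer cells with the mark and less mark per cell cannot be told apart.

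Of the 6 skeleton genes with a promoter peak in NTC, 3 (EPB42, TMOD1 and DMTN) had none in any KO library. The other 3 (SPTB, EPB41 and ADD1) had a KO peak in METTL3-KO alone. For EPB41 that peak was in METTL3-KO replicate 2 only and at a different start from the NTC peaks. ANK1 went the other way. EPB42, EPB41, ADD1 and TMOD1 were marked in all 3 NTC libraries, and each was lower in the KO libraries together. SPTB was marked in 2 NTC libraries and in METTL3-KO alone among the KO groups. ANK1 was unmarked in NTC and marked in all 6 KO libraries. DMTN had a single weak NTC peak, and SLC4A1 and ADD2 had none in any library. Of the 9 genes, 5 were marked in each NTC library, 3 and 4 in the METTL3-KO libraries, and 1, which was ANK1, in every library of METTL14-KO and WTAP-KO.

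**Figure D1:**
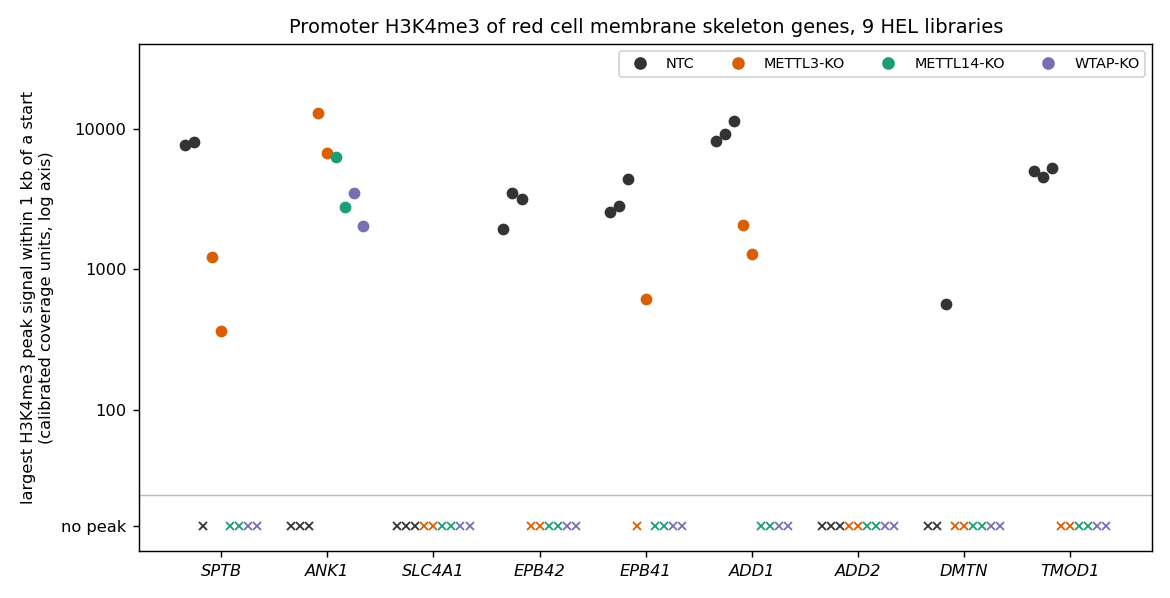
Promoter H3K4me3 of the 9 genes in the 9 libraries. The vertical axis is the largest peak signal within 1 kb of a start in calibrated coverage units on a log axis, each point is 1 library, and crosses under the grey line are libraries without a peak. EPB42, EPB41, ADD1 and TMOD1 have all NTC points above all KO points, ANK1 has KO points only, and SLC4A1 and ADD2 have crosses only.

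The promoter sequences of SPTB, EPB42 and ADD1 are shown because they set marked genes that hold an erythroid motif beside the gene with the strongest NTC promoter mark. Each is the 200 bases before the gene start on GRCh37 (hg19), read 5′ to 3′ on the gene's strand, and capitals mark AGATAA, a form of the motif that GATA1 binds. Motifs are given for these 3 genes alone, and the windows of the other 6 are not reported here. The SPTB window is chr14:65346626-65346825 on the minus strand, the EPB42 window is chr15:43513217-43513416 on the minus strand, and the ADD1 window is chr4:2845371-2845570 on the plus strand.
SPTB: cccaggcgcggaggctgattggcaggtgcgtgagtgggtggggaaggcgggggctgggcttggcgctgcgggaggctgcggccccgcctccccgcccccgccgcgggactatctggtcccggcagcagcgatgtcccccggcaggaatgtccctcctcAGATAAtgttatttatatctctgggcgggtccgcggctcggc
EPB42: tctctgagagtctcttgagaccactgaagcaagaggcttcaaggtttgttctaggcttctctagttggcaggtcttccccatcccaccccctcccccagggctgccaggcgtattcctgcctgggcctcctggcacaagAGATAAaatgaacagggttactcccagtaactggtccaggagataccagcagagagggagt
ADD1: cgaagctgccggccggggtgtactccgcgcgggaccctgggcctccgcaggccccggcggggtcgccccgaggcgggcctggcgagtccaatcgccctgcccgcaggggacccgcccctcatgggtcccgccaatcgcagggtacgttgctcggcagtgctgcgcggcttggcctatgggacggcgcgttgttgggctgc
On either strand AGATAA occurred at bases 42 to 37 before the start in SPTB and 61 to 56 in EPB42, and not in ADD1. TGATAA, its close variant, was in none of the 3 windows. Of 20140 coding promoters of the same length, 5.95% held AGATAA and 9.63% held AGATAA or TGATAA. The second motif searched, CCNCNCCC, which KLF1 can bind, matched 3 times in SPTB, 3 times in EPB42 and not in ADD1, with overlapping matches counted, and 56.4% of the promoters held it. CpG was scarce in EPB42, where the observed number over the number expected from base composition was 0.0663. The ratio was 0.773 in SPTB and 0.878 in ADD1, and the median over all promoters was 0.680. Of the 3, EPB42 thus combined the motif with the lowest CpG content, and ADD1 had the highest without the motif.

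SPTB, which encodes the erythroid beta-spectrin, had a promoter signal of 7614 and 7991 in NTC replicates 1 and 2 and no peak in NTC replicate 3. It was 1222 and 367 in the METTL3-KO libraries, and the METTL14-KO and WTAP-KO libraries had no peak. The groups overlapped through NTC replicate 3 alone, which listed a peak of 234 further inside the gene, 1514 bp past the start. Whether a domain broader than 2000 bp went unlisted there was not tested. With all libraries the log2 difference of KO from NTC was -3.83 (SE 1.90), and limma gave an adjusted p of 0.0983, so SPTB did not pass. The difference was -6.51 (adjusted p = 7.7e-05) without NTC replicate 3, and -4.88 (adjusted p = 0.00742) where peaks within 5 kb were counted. Over the 9 libraries the 2-sided exact permutation p was 0.167.

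The SPTB peaks lay on both sides of the start at 65346625 on chromosome 14. The upstream peaks of the NTC libraries spanned 1416 and 1259 bp, whereas those of METTL3-KO spanned 476 and 438 bp inside the same region, so the METTL3-KO peaks were shorter as well as weaker. Downstream of the start, a region at 65344850 to 65346424 had a signal of 4279, 4353 and 234 in NTC and no KO peak, with a log2 difference of -5.83 (limma adjusted p = 0.00110). Introns of SPTB held 3 further regions, 8876 bp or more from the nearest start, each with a peak in the 3 NTC libraries and without one in KO.

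**Figure D2:**
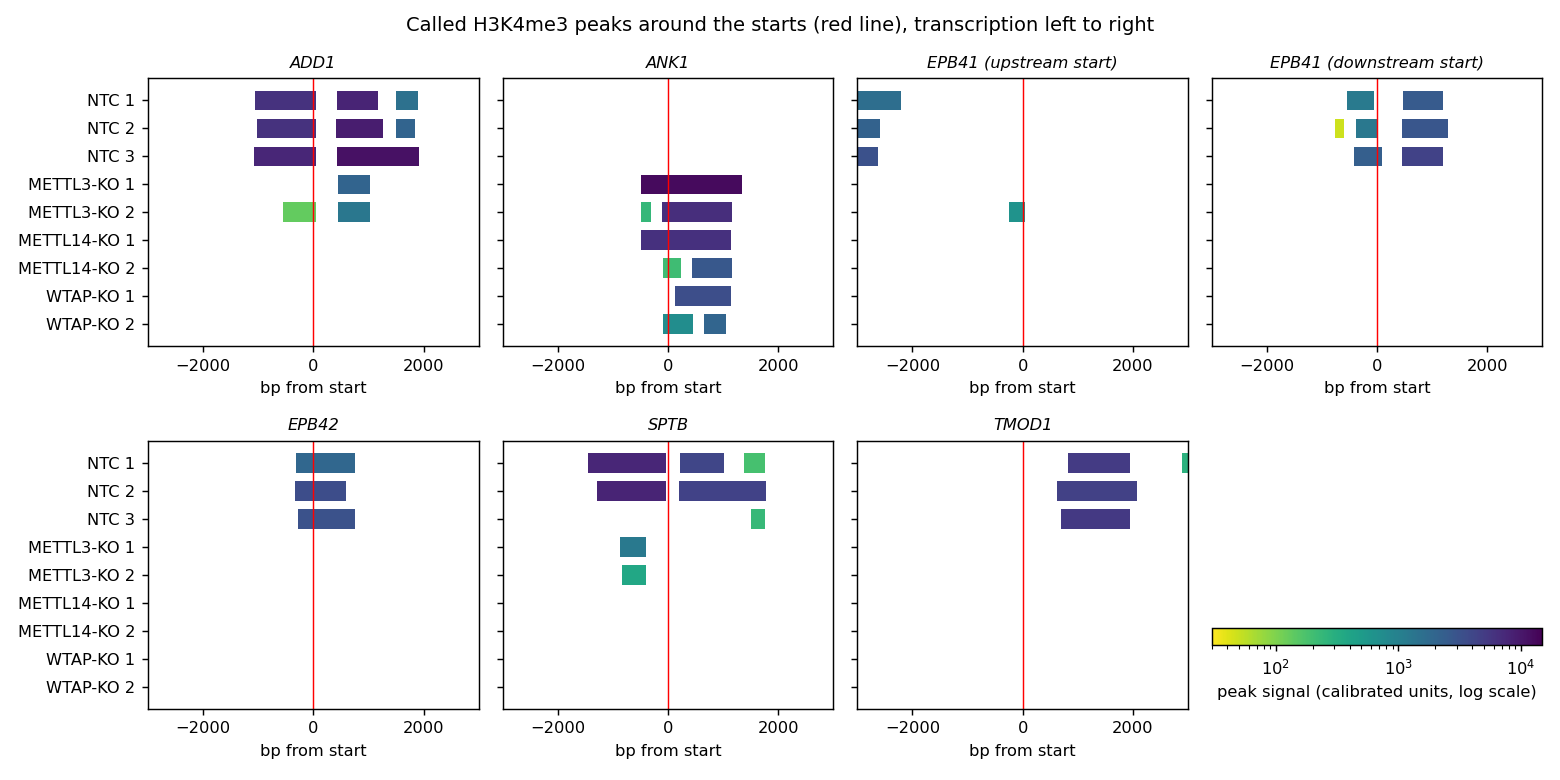
Called H3K4me3 peaks around the starts of 6 genes, with 2 starts shown for EPB41. The horizontal axis is the distance in bp from the start (red line) with transcription running left to right, each row is 1 library, each bar is 1 peak and its colour gives the signal on a log scale. NTC bars flank or cover the starts of ADD1, EPB42, SPTB and the downstream start of EPB41, and KO bars are few except at ANK1.

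ANK1 encodes ankyrin, the adaptor between spectrin and band 3. Its promoter signal was 12838 and 6713 in METTL3-KO, 6298 and 2765 in METTL14-KO, and 3465 and 2025 in WTAP-KO, and the 3 NTC libraries had none inside that window. The KO libraries therefore lay above the NTC libraries without overlap, which held for 5.21% of the 12037 coding genes tested. The log2 difference was 7.29 (SE 0.406, limma adjusted p = 3.9e-06), and the exact permutation p was 0.0238, the smallest that 84 splits allow. Since NTC had no listed peak the size of this difference is set by the pseudocount, and no fold change is given. The NTC libraries add no spread to the SE. ANK1 entered the model through its KO peaks alone, which fixed the direction, so these p-values are no independent support.

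All these ANK1 peaks belonged to 1 start cluster, at 41655111 and 41655140 on the minus strand of chromosome 8, which opens the first exon of coding transcripts and sits in an intron of the longer ones. The strongest peaks of both METTL3-KO libraries and of METTL14-KO replicate 1 reached over the cluster. Those of WTAP-KO replicate 1, METTL14-KO replicate 2 and WTAP-KO replicate 2 began 100, 404 and 628 bp inside the gene. A weaker peak over the cluster was also listed in METTL14-KO replicate 2 (207) and WTAP-KO replicate 2 (731). The nearest NTC peaks began 4604 bp downstream, with a signal of 2622, 2811 and 3932, and no KO library had a peak there. With peaks within 5 kb counted, NTC and KO libraries overlapped and the log2 difference was 0.60 (limma adjusted p = 0.180; exact permutation p = 0.357). For METTL3-KO alone, where both libraries lay above all NTC libraries, it was 1.59 (limma adjusted p = 0.0253). The METTL3-KO replicate 1 peak was 1823 bp wide, near the limit of the lists. Over all coding genes, the 588 with a peak in every KO library and in no NTC library had a median widest KO peak of 1444 bp, against 993 bp for the 665 marked in every library. NTC lists held 903 to 975 peaks over 1800 bp wide and KO lists 9 to 116, and whether a broader NTC domain over the ANK1 start went unlisted was not tested. A lncRNA start (ENSG00000289514) on the other strand shared the ANK1 peaks.

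Elsewhere in ANK1 the direction was the opposite. Inside the gene, 14761 bp or more upstream of the marked start, 3 regions carried strong NTC peaks. The region at 41685152 to 41686456 had 9647, 9041 and 11733 in NTC, 246 and 618 in METTL3-KO and no other KO peak, and the peaks of NTC replicates 1 and 2 came within 1 kb of the start of a lncRNA (ENSG00000260588) on the same strand. The region at 41669901 to 41670714 had 8980, 7346 and 9330 in NTC and 48.1 in METTL3-KO replicate 2 alone. The region between them was marked in NTC alone. Each of the 3 fell, with log2 differences of -7.12, -7.92 and -7.12 and limma adjusted p-values of 7.0e-07, 4.8e-07 and 9.2e-09. Of the 7 ANK1 regions tested, 5 were lower, 1 was higher and 1, an intronic region at 41628853 to 41629132 in 2 NTC libraries, did not pass (log2 difference -1.71, adjusted p = 0.0578). The marked start thus stood alone among the ANK1 regions in its direction.

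**Figure D3:**
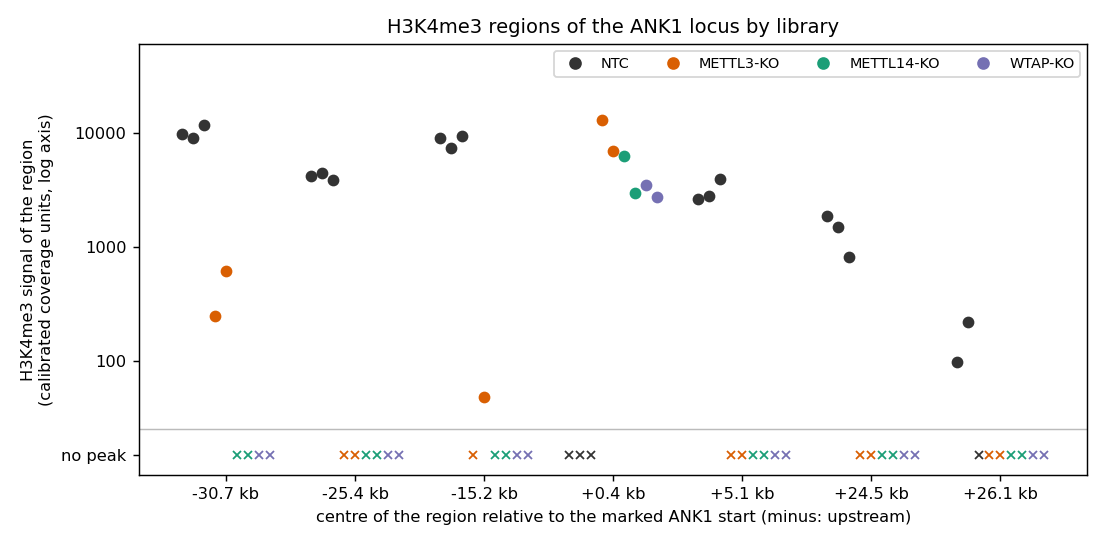
H3K4me3 signal of the 7 merged regions of the ANK1 gene in each library. The horizontal axis orders the regions by the distance in kb of their centre from the marked start (minus is upstream), the vertical axis is the summed peak signal in calibrated coverage units on a log axis, each point is 1 library, and crosses are libraries without a peak. The region at the start has KO points and NTC crosses, and the other 6 have NTC points with at most 2 METTL3-KO points.

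SLC4A1 encodes band 3, the anion exchanger that anchors ankyrin, and had no listed peak in a 5 kb window around its starts. Its nearest listed peak was 20247 bp away. The gene could not be compared between groups.

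EPB42 encodes protein 4.2, which steadies the contact between band 3 and ankyrin. Its promoter signal was 1949, 3520 and 3145 in NTC, and the 6 KO libraries had no peak. NTC peaks of 916 to 1080 bp covered the start in each case and contained the sequence window shown above. The log2 difference was -6.55 (SE 0.198, limma adjusted p = 1.9e-07; exact permutation p = 0.0238). Without a KO peak its size is set by the pseudocount, and the KO libraries add no spread to the SE. EPB42 entered the model through its NTC peaks alone, which fixed the direction. A small region 4370 bp upstream had a signal of 450, 421 and 305 in NTC and was also without a KO peak.

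EPB41 encodes protein 4.1, which strengthens the spectrin and actin junction. Its promoter signal was 2573, 2844 and 4372 in NTC, 614 in METTL3-KO replicate 2, and absent from the other 5 KO libraries. KO and NTC libraries did not overlap, and the log2 difference was -6.00 (SE 0.909, limma adjusted p = 0.00079; exact permutation p = 0.0238). The KO peak and the NTC peaks belonged to different starts. The NTC peaks lay on both sides of the downstream start cluster that begins at 29241056 on chromosome 1, which a peak of NTC replicate 3 also covered, and where no KO library had a peak. The METTL3-KO peak, 282 bp wide, covered the upstream cluster that begins at 29213603, where no NTC library had a peak within 1 kb. NTC peaks of 1631, 2165 and 3231 ended 2204 to 2615 bp before that upstream start. An intronic region at 29253504 to 29255030 was marked in NTC alone, with 2293, 1605 and 4282.

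ADD1 encodes alpha-adducin, which caps actin filaments and recruits spectrin to them. Its promoter signal was 8165, 9121 and 11299 in NTC and 2086 and 1279 in METTL3-KO, and METTL14-KO and WTAP-KO had no peak. The METTL3-KO mean was 17.7% of the NTC mean. For METTL3-KO the log2 difference was -2.51 (SE 0.329, limma adjusted p = 0.000486), for METTL14-KO it was -8.30 (SE 0.329, adjusted p = 8.4e-07), and for WTAP-KO it was the same to 2 decimals. METTL3-KO was higher than METTL14-KO and WTAP-KO by 5.79 (SE 0.313, limma adjusted p = 4.1e-05), where the size is set by the pseudocount. Of 8495 coding genes marked in all NTC libraries, 13.8% had this pattern of a peak in both METTL3-KO libraries and in no library of the other KO groups.

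The ADD1 promoter consisted of a region over the gene start and a stronger one over a start further downstream. The downstream region kept the METTL3-KO peaks, which were 593 and 592 bp wide against 750 to 1477 bp for the main NTC peaks. Over the gene start, NTC peaks had a signal of 6249, 6213 and 7620, METTL3-KO replicate 2 had 132 and no other KO library had a peak. Per base of its strongest peak ADD1 stood at 10.9, 10.8 and 7.65 in NTC and at 3.52 and 2.16 in METTL3-KO. Per base, SPTB stood at 5.38 and 6.35 in its 2 marked NTC libraries, below the lowest ADD1 value. NTC values per base of EPB41 (3.53, 3.43 and 5.88) and TMOD1 (4.48, 3.12 and 4.25) overlapped, and those of EPB42 (1.80, 3.84 and 3.03) overlapped both. ANK1 in KO libraries ranged from 3.43 to 7.04 per base.

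ADD2 encodes beta-adducin, the partner of alpha-adducin in red cells, and was likewise without a peak in that window. The nearest peak was 103012 bp away. DMTN encodes dematin, an actin-bundling protein, and had 1 peak, of 570 in NTC replicate 3, over a start at 21924009. With 1 marked library it was below the minimum of 2 for the model, and its exact permutation p was 0.667.

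TMOD1 encodes tropomodulin, which caps the slow-growing end of the actin filaments. Its promoter signal was 5046, 4529 and 5285 in NTC, the narrowest relative spread of the marked genes, and KO peaks were absent. The log2 difference was -7.37 (SE 0.0977, limma adjusted p = 1.3e-08; exact permutation p = 0.0238). As for EPB42, the KO libraries add no spread to the SE, and entry through NTC peaks alone fixed the direction. The size is set by the pseudocount, at -10.7 with 0.1 times and -4.12 with 10 times its value. The peaks lay in an intron, 629 to 817 bp past an annotated start, and covered no start. A region 19555 bp past the nearest start had 4292, 2829 and 4556 in NTC and no KO peak.

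Of the 6 genes that could be tested, 4 were lower and 1 was higher in the KO groups together, against 73.0% lower and 14.3% higher among the 12037 coding genes with a promoter peak in at least 2 libraries. Genes with a peak in at least 2 libraries only through one group had to differ, so the counts describe the 6 genes and carry no test. The same 5 genes passed in the same direction in each KO group. Coding genes were lower in 60.9% and higher in 14.0% for METTL3-KO, lower in 68.8% and higher in 8.38% for METTL14-KO, and lower in 69.7% and higher in 6.81% for WTAP-KO. The share of skeleton genes that were lower was near that of all genes. Every KO library lay below every NTC library for EPB42, EPB41, ADD1 and TMOD1, as for 68.3% of the coding genes tested. EPB42 and TMOD1 had no KO peak, as had 45.8% of coding genes marked in all NTC libraries. With the 5 kb window 5 of 6 were lower, SPTB being the added gene, and 76.3% of 12819 coding genes were.

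**Figure D4:**
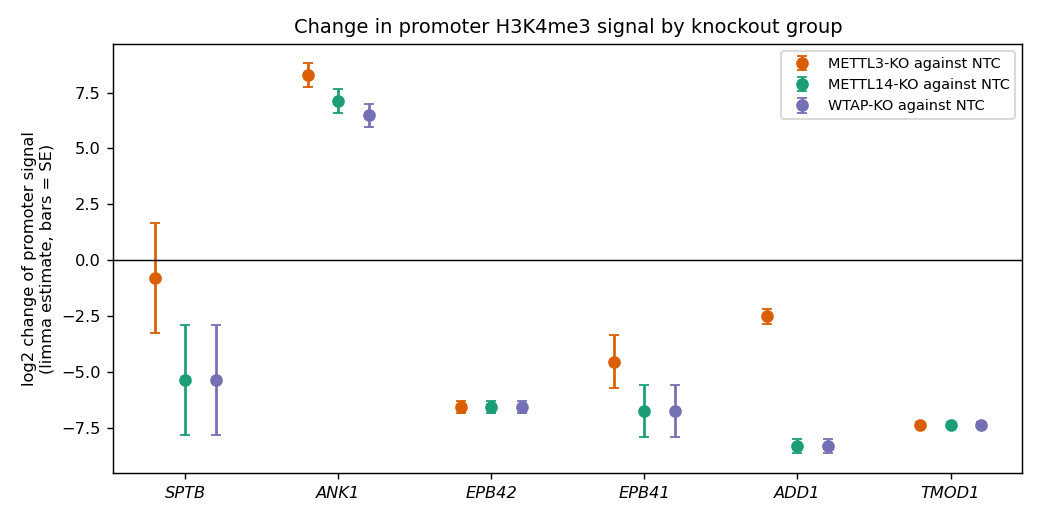
Log2 difference in promoter H3K4me3 signal of each KO group from NTC for the 6 genes tested. The vertical axis is the limma estimate on log2 of signal plus pseudocount, points are estimates, and bars are standard errors. ANK1 lies above 0 in all 3 groups, EPB42, EPB41, ADD1 and TMOD1 lie below 0, and ADD1 sits nearer to 0 in METTL3-KO than in the other groups.

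The median log2 difference of the 6 genes was -6.18 against -5.30 over all genes tested, and these medians depend on the pseudocount. It was -3.52 against -3.48 for METTL3-KO, -6.64 against -5.57 for METTL14-KO and -6.64 against -5.97 for WTAP-KO. The KO contrasts share their NTC libraries. ADD1 was the 1 gene of 6 that was higher in METTL3-KO than in the other KO groups, which held for 29.5% of all genes tested. That difference was 1.47 for ANK1 (adjusted p = 0.0729), 2.21 for EPB41 (adjusted p = 0.198) and 4.55 for SPTB (adjusted p = 0.199), so these limma values did not pass, and for ANK1 the sign turned under the centring described next (-0.12).

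The steps between values were smaller in the KO libraries, so each value was also recomputed on other scales. Dividing each library by its step left the same count of 4 lower, and ANK1 at 8.68 (adjusted p = 1.8e-05). In METTL3-KO the ADD1 difference then had an adjusted p of 0.0657. An unlisted peak has no signal to divide, so calls that rest on unlisted peaks were largely fixed beforehand. Division cannot restore peaks below the listing cutoff. The lowest listed signal was 24 to 28 steps in NTC and 30 to 94 steps in KO libraries. Centring each library on genes marked in all 9 moved the median of all genes by 2.59 on the log2 scale. Relative to that, EPB42, EPB41, ADD1 and TMOD1 stayed lower, at -3.96, -3.41, -3.78 and -4.78, and ANK1 stayed higher, at 9.88. Of all genes 61.3% were then lower and 17.7% higher in the KO groups together. The shift is the same for every gene and also moves the floor of libraries without a listed peak. The centred values of EPB42, TMOD1 and ANK1 therefore still rest on unlisted peaks, and the larger ANK1 value is no larger rise. In METTL3-KO the centred values of ADD1 (-0.98, adjusted p = 0.0739) and EPB41 (adjusted p = 0.0832) no longer passed, and SPTB turned to 0.73 (adjusted p = 0.796). Of all genes 50.3% were then lower and 16.0% higher in METTL3-KO. In WTAP-KO the centred EPB41 value had an adjusted p of 0.0555.

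Across whole gene bodies and 5 kb around the starts the 9 genes held 28 merged regions, of which 21 had no KO peak, as had 64.1% of the 30402 merged regions of the genome. Of the 22 regions present in at least 2 libraries, 19 were lower and 1, the ANK1 start, was higher. Over the genome 76.7% of 24547 such regions were lower and 12.2% higher. No coding gene shared a promoter peak with a skeleton gene, and a lncRNA start (ENSG00000288779) shared that of SPTB.

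By Euclidean distance of log2 promoter signal over the 9 libraries, the coding genes nearest to ADD1 were MOCS2 (0.273), ATAD3B (0.390) and PIAS3 (0.398). Those nearest to ANK1 were NRGN (0.622), VPS26C (0.654) and PRRT1 (0.713), which like ANK1 had no NTC peak.

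Of 14 paralogs of the skeleton genes, 10 were tested and all 10 were lower, against 73.0% of all genes tested, with a median log2 difference of -5.91 against -5.30. All 10 were marked in the 3 NTC libraries, which favours a fall, so the count is no result about paralogs, and ANK3, EPB41L3, SLC4A3 and TMOD4 had no peak. The general beta-spectrin SPTBN1 had 13715, 14102 and 16600 in NTC, 2530 and 1155 in METTL3-KO and 360 and 318 in WTAP-KO. TMOD3 had 11665, 11199 and 12474 in NTC, and 2507 and 977 in METTL3-KO alone among KO groups. The gamma-adducin ADD3 had 7560, 5883 and 8261 in NTC, 835 and 1276 in METTL3-KO and 238 in WTAP-KO replicate 2. The 6 paralogs with a KO peak each had one in both METTL3-KO libraries, as ADD1 had.

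Of 18 other genes of the red cell membrane, 8 were lower, 2 were higher and 5 of the 15 tested did not pass, with a median of -3.82, against 73.0% lower, 14.3% higher and a median of -5.30 over all genes tested. Glycophorin C (GYPC), which binds protein 4.1, had 9782, 9301 and 11752 in NTC and no KO peak, and its log2 difference was -8.41 (limma adjusted p = 1.3e-08). ACTB, KEL, XK, MPP1 and STOM also fell and had no KO peak. The glucose transporter SLC2A1 had a peak in each of the 6 KO libraries, at 2040 and 1978 in METTL3-KO and 243 to 865 in the others, against 11411 to 13930 in NTC (log2 difference -3.82, adjusted p = 0.000113). TPM1, a tropomyosin, had a peak in every library, at 4026 to 4284 in NTC, 5893 and 3754 in METTL3-KO and 753 to 1629 in the other KO groups, so METTL3-KO overlapped NTC although the KO groups together were lower (-1.22, adjusted p = 0.0133).

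FLOT1 and FLOT2, which encode the flotillins, were the 2 that were higher, with no NTC peak. FLOT1 had 3908 and 1181 in METTL3-KO and 457 and 699 in METTL14-KO, and FLOT2 had 1262 and 1087 in METTL3-KO alone. RHCE had a peak in all 6 KO libraries, of 1354 to 6012, and in NTC replicate 1, of 12614. RHAG had peaks in METTL14-KO replicate 1 and both WTAP-KO libraries and none in NTC, and did not pass (adjusted p = 0.0907). AQP1 had no peak.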

How the data were processed

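The authors cut chromatin in HEL cells with antibody-directed MNase, sequenced paired ends, aligned fragments with Bowtie to hg19 and to the yeast genome sacCer3 of a spike-in, calibrated by the spike-in, removed duplicates with Picard and called peaks in each library. They deposited 1 peak list per library, whose values are a calibrated coverage signal. How the calibration was set is not given in the sources used here. Starts were read as counted from 0, and coordinates are printed from 1. Depth is unknown, and the same calibration scales the calling threshold.

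Groups and replicate numbers came from the labels. Promoter signal was tested with limma 3.58.1 (R 4.3.3; trend option, all 9 libraries and 4 groups in 1 model, 5 contrasts, Benjamini-Hochberg adjustment over all genes at 0.05) on log2(signal + 30.1), where 30.1 is the lowest promoter signal, over genes with a peak in at least 2 libraries. This scale understates the change of weak promoters. In a group without a peak at a gene all values equal that floor, which sets the size of the difference, as for ADD1 in METTL14-KO and WTAP-KO. Single genes also had a 2-sided exact permutation test on group means (scipy 1.17.1). Overlapping peaks were merged across libraries into regions, with signals summed, an alternative chosen after seeing the data. The model was tested on simulated data drawn from normal distributions. Those data lacked the many equal values at the floor, so they do not test calls that rest on unlisted peaks. Annotation was GENCODE on GRCh37, and sequences came from that genome. Python 3.11.15, numpy 2.4.6, pandas 2.3.3 and matplotlib 3.10.9 were used.

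The 9 genes, the lists of other membrane genes, paralogs and markers, and the tests were chosen with earlier results of these data known. Named were the 9 genes, listed genes that passed or kept a KO peak, genes sharing a promoter peak, and the 3 genes nearest to the member with the highest NTC mean and to the one with most KO peaks. Alternatives were the window, the sum of peaks, the gene start alone, strong peaks, the pseudocount, the filter, 2 scalings, the groups fitted, the replicate block and leaving out each library. Some genes of the lists and a promoter sequence are not reported here.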

Additional observations from a re-analysis of the deposited data

Results flagged for a closer look

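The promoter signal of ADD1 differed between KO groups. METTL3-KO was higher than METTL14-KO and WTAP-KO by 5.79 on the log2 scale (limma adjusted p = 4.1e-05), with a peak in 2 of 2 METTL3-KO libraries and in none of the other KO libraries. Leaving out any single library kept the adjusted p between 3.7e-05 and 0.000570.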

How the results depend on the processing

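Of 121 values of the gene counts under the alternatives, 106 stayed within 1.5 times the main count or within the spread. Using the gene start alone left 2 genes lower in all KO groups together and 2 in each KO group, since the NTC peaks of TMOD1 and EPB41 lie over 1 kb from the gene start. ANK1 could not be tested there either, since no library had a peak within 1 kb of its gene start. Centring left 2 lower in METTL3-KO. The count higher in METTL3-KO than in the other KO groups was 0 with strong peaks only, and 2 with 10 times the pseudocount (ANK1 added), with only the groups compared (SPTB added) and with the replicate block (SPTB added). The block takes up NTC replicate 3, the only library with that number, and gives the same estimates as leaving it out. Leaving out 1 library gave 4 to 5 genes lower in all KO groups together and in each KO group, with 5 without NTC replicate 3, and 1 to 2 genes higher in METTL3-KO than in the others, with 2 without NTC replicate 3 (SPTB added), METTL3-KO replicate 1 (EPB41 added) or METTL14-KO replicate 1 (ANK1 added). With 1 library left out, the mean number of genes marked per library ranged over 1.4 to 2 in KO and stayed at 5 in NTC. Genes marked per NTC library averaged 6.33 within 5 kb, 2.67 at the gene start and 4.33 with strong peaks only.

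Of 117 values for single genes in all KO groups together 112 kept their call, and none changed sign. The gene start alone gave no value for ANK1, EPB41 and TMOD1, and these are not among the 117. Estimates cannot move under the filter settings, which are among the 117. SPTB passed within 5 kb (-4.88), with strong peaks only (-1.49, limma adjusted p = 0.0337) and without NTC replicate 3 (-6.51). It also passed with the replicate block (-6.51, limma adjusted p = 0.000311). The block has the same estimates as leaving out NTC replicate 3, so it is no second check. ANK1 did not pass within 5 kb (0.60). In single contrasts some signs turned. ANK1 in WTAP-KO was 6.48 in the main fit and -0.21 within 5 kb, and SPTB in METTL3-KO was -0.80 and, centred, 0.73. With strong peaks only, ANK1 in WTAP-KO (0.704, limma adjusted p = 0.205) and EPB42 in each KO group did not pass. Libraries with the same number showed no clear common deviation (mean correlation 0.00586, range -0.0578 to 0.0950 over 12 pairs). In a group of 2 libraries the deviations from the group mean mirror each other, so these pairs are not separate values. Whether the numbers pair the libraries cannot be settled this way. The block gave 5 genes lower in all KO groups and in each KO group, as did leaving out NTC replicate 3. Depth is unknown and cannot be weighed here. Causes of these shifts other than those named were not tested.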
